A study of Glycine max with 34 samples.

Results

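Kunitz trypsin inhibitors are small plant proteins that bind serine proteases such as trypsin and block them. In soybean seeds they accumulate with the storage proteins, are counted among the antinutritional factors of raw meal, and are thought to protect the seed from animals that eat it. They are encoded by a gene family whose members have similar sequences, so a probe can bind more than 1 of them. The 4 genes described here carry the symbols KTI3, KTI1, KTI-2 and KTI-3 in the table that pairs probe sets with genes. They were chosen by symbol from 6029 genes that have a probe set listed for them alone. KTI1, KTI3 and KTI-2 have 1 such probe set each and KTI-3 has 2, which makes 5 of the 37593 soybean probe sets on the array. KTI3 encodes the main trypsin inhibitor of the soybean seed, and KTI1 encodes another inhibitor of the seed. KTI-2 and KTI-3 are known here as members of the family by their names, and no further role is given for them. In the RefSeq table of the assembly Glycine_max_v4.0, all 4 genes were found and no 2 of them are neighbours, while KTI3 lies next to the related gene KTI-1.

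Seeds of the soybean cultivar Asgrow A3237, 6.0 to 7.0 mm long and at early maturation, were fixed, embedded and cut into 8-micron sections, and 16 compartments were isolated by laser microdissection. They were 6 compartments of the embryonic axis (plumule, shoot and root meristems, vascular bundle, parenchyma and epidermis), 5 of the cotyledon (vascular bundle, and epidermis and parenchyma of the abaxial and the adaxial side) and 5 of the seed coat (palisade, hourglass, parenchyma, hilum and aleurone). Whole seeds were ground as another group, with a different RNA reagent. Each of the 17 groups had 2 biological replicates with 1 array each, all from the same cultivar and stage with no treatment, and the 2 ng of RNA behind each array was amplified before labelling. The number of seeds in a replicate, and whether compartments share seeds, is not in the labels, so the p-values measure only the spread between these samples. A compartment holds many cells, and fewer cells that express a gene cannot be told apart from less of its RNA per cell.

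All values are probe set signals on a linear scale, brought to a common mean on each array by the authors' software. The background of an array is the 95th percentile of its probe sets for 2 other organisms, a pathogen and a nematode, and it ranged from 104 to 264 (median 170.2). Pairs of signals are given as replicate 1 and replicate 2. Differences are on log2 of the signal plus 16, with their standard error, and a gene is called when its limma p, adjusted by Benjamini and Hochberg over 28441 probe sets, is under 0.05 and the difference is at least 1 in size. A fold compares means of these log2 values, with each compartment weighted alike. It is written "at least" where 1 or more arrays of the dimmer side lay below the background, whose signals were then raised to it. Between 44.2% and 59.8% of the soybean probe sets exceeded it. Replicate arrays correlated at 0.870 to 0.956 over the probe sets tested. The arrays differed in the signal of spiked hybridization controls, which was 1.08 to 3.33 times the median of all arrays in the axis, 0.578 to 1.46 times in the cotyledon, 0.613 to 2.30 times in the seed coat and 0.307 to 0.356 times in the whole seed. The 6 seed coat markers summed to 12381 to 138155 on the seed coat arrays and to 246 to 1892 on the cotyledon and axis arrays, and the 8 embryo storage markers to 486 to 12965 in the seed coat and to 9659 to 245697 in cotyledon and axis. UGT78K1 was the 1 gene matched of the epidermis marker list, which was chosen with earlier results of these data known. It was at 17068 to 42303 in the 3 epidermis groups and below the background in each parenchyma of the embryo. It was not confined to epidermis groups, at 8026 to 9163 in the aleurone, 3129 to 3466 in the plumule, 2294 to 2302 in the shoot meristem and 179 to 1257.5 in the hourglass layer. No gene of the meristem marker list was matched, so the 2 meristem labels were not checked.

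KTI3 and KTI1 had their highest mean signals in the cotyledon parenchyma, and KTI-2 and KTI-3 in the axis parenchyma. In the seed coat the single-gene probe sets of the 4 genes were low except for KTI-3 in the parenchyma. KTI3 was high in all 3 parenchyma groups of the embryo on its single-gene probe set, and KTI1 in the cotyledon, chiefly in its abaxial parenchyma. KTI-2 and KTI-3 were high in the axis parenchyma and in the epidermis and vascular bundle of the cotyledon. For both genes the axis epidermis overlapped some of these groups, as did the plumule and the root meristem for KTI-3. KTI3 exceeded the background on 30 of 34 arrays, KTI-2 on 29, KTI-3 on 33 and KTI1 on 10. All 4 differed among the 16 compartments (limma F test, adjusted p between 2.18e-14 for KTI-3 and 4.39e-09 for KTI1), as did 63.4% of the probe sets tested. All 4 also differed within the cotyledon, against 20.5% of the probe sets tested, but KTI3 was not called there without either array of the abaxial epidermis (adjusted p = 0.0621 and 0.0739) or with a pseudocount of 1 (adjusted p = 0.0502). Within the axis 3 of 4 differed, against 25.9%, and within the seed coat 3 of 4, against 46.2%. KTI1 was the gene without a call in the axis (adjusted p = 0.239) and in the seed coat (adjusted p = 0.724). Without replicate 2 of the seed coat parenchyma, 1 of the 4 genes differed within the seed coat.

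**Figure D1:**
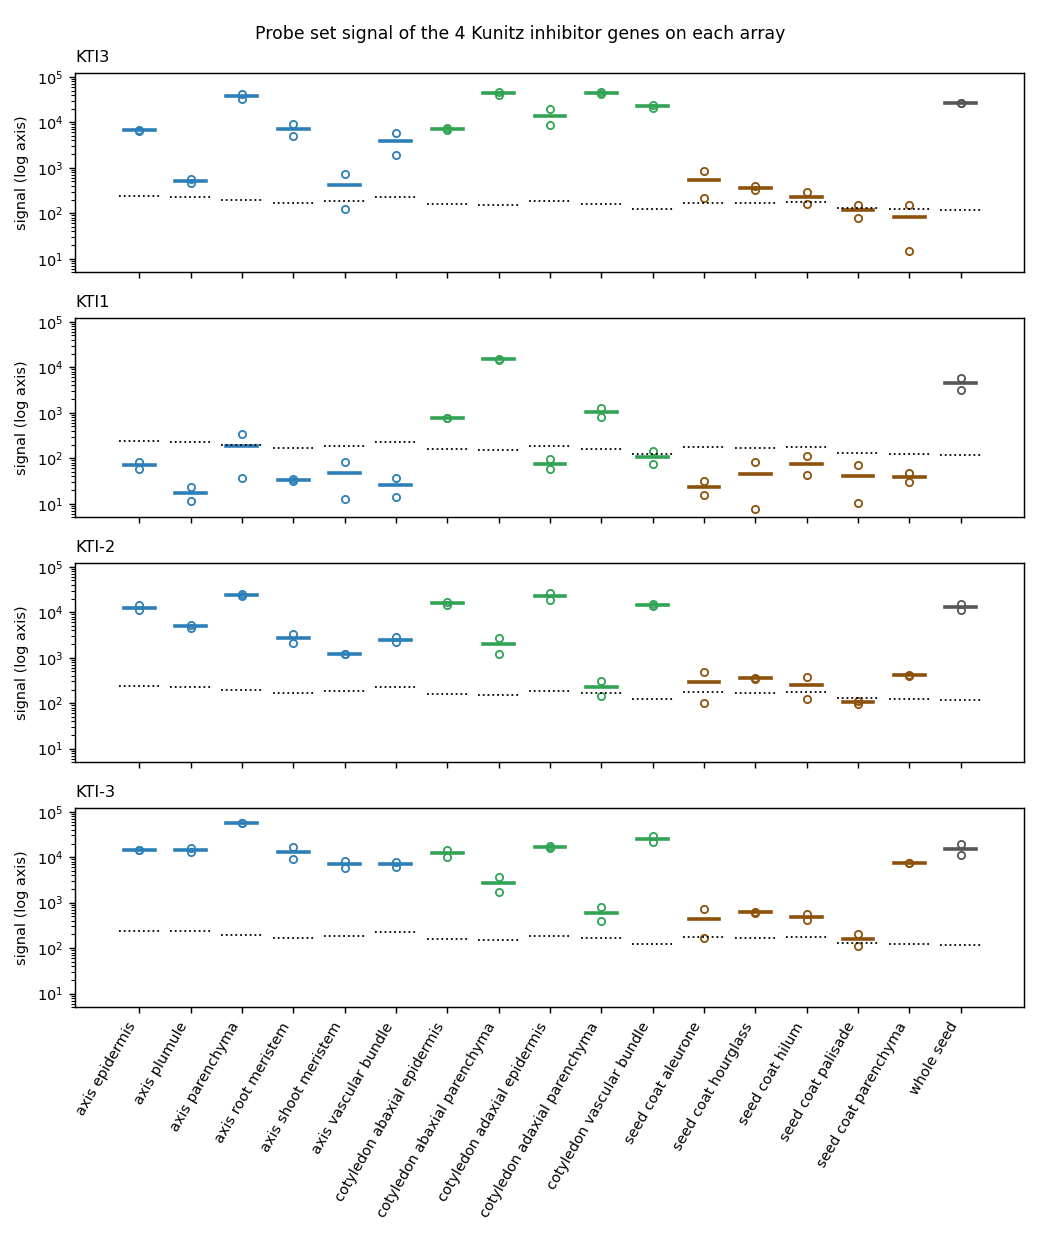
Signal of KTI3, KTI1, KTI-2 and KTI-3 (log axis) in the 17 groups. Circles are the 2 arrays of a group, bars their mean and dotted lines the mean background of those arrays. The signals of KTI1 lie above the background on both arrays in 4 groups, while KTI3 spans 14.6 to 47231.

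On its single-gene probe set KTI3 was brightest in the parenchyma of the cotyledon and the axis. Its signals were 45708 and 42324 in the adaxial parenchyma of the cotyledon, 47231 and 40078 in the abaxial parenchyma and 42458 and 32287 in the axis parenchyma. These 3 groups overlapped, and no array of another group reached them. The whole seed followed at 26479 and 27244 and the cotyledon vascular bundle at 20855 and 24374. The next group, at 19163 and 8946, was the adaxial epidermis. Each of these stood clear of the group after it, although the brighter root meristem array exceeded the dimmer one of the adaxial epidermis.

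The abaxial epidermis gave 7415 and 6876, the root meristem 9114 and 5112 and the axis epidermis 6938 and 6318. Neighbours among these 3 overlapped. The axis vascular bundle was at 1906 and 5949, below the axis epidermis on both arrays although its own arrays differed widely. All remaining groups were far dimmer. The plumule gave 458 and 572, the shoot meristem 724 and 122 and the aleurone 841 and 214. The hourglass layer was at 391 and 327, and the last 3 groups, the hilum at 294 and 157, the palisade at 152 and 78.2 and the seed coat parenchyma at 152 and 14.6, each had 1 array below the background, as had the shoot meristem.

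KTI1 was a gene of the cotyledon. Its signals were 14709 and 15227 in the abaxial parenchyma and 3150.3 and 5946 in the whole seed. They were 1256 and 792 in the adaxial parenchyma and 776 and 764 in the abaxial epidermis. No 2 of these 4 groups overlapped, and they were the only groups with both arrays above the background. In the axis parenchyma the arrays were at 37.1 and 333 and in the cotyledon vascular bundle at 143 and 73.1, in each case with 1 array above the background and 1 below. In the other 11 groups every array lay below the background, between 7.8 and 109.7, and values there have no order.

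KTI-2 was brightest in the axis parenchyma and the cotyledon epidermis. It was at 25625 and 23294 in the axis parenchyma and at 26594 and 19008 in the adaxial epidermis of the cotyledon. These 2 groups overlapped and lay above all others. The abaxial epidermis at 14788 and 16673, the cotyledon vascular bundle at 15438 and 13880.5, the whole seed at 11066 and 15295 and the axis epidermis at 14109.6 and 11275 followed, each overlapping the next. The plumule stood alone at 5178 and 4539.6.

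Below the plumule came the root meristem at 3256 and 2152, the axis vascular bundle at 2209 and 2814, the abaxial parenchyma at 2718 and 1187 and the shoot meristem at 1224 and 1214. Again each overlapped the next. The seed coat was dim, with the parenchyma at 424 and 396, the hourglass layer at 342 and 357, the aleurone at 479 and 102 and the hilum at 126 and 369. The adaxial parenchyma of the cotyledon, at 311 and 142, was as dim as the seed coat and overlapped the hilum. The palisade, at 98.1 and 114, was below the background on both arrays.

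KTI-3 was brightest in the axis parenchyma, at 55428 and 55403 on its brighter probe set, and no other group reached this level. The cotyledon vascular bundle was next at 29447 and 21769, also clear of the groups below it. A broad set of 6 groups followed, in which each overlapped the next. They were the adaxial epidermis at 17456 and 16066, the whole seed at 11309 and 19509, the plumule at 16248 and 13146, the axis epidermis at 14402 and 14244, the root meristem at 16552 and 8927 and the abaxial epidermis at 14333 and 10057.

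The seed coat parenchyma, at 7489.8 and 7331, came next and overlapped the axis vascular bundle at 6142 and 7954, which in turn overlapped the shoot meristem at 8062 and 5788. The abaxial parenchyma of the cotyledon was lower at 3681 and 1678. The remaining groups were no higher than 814 on any array. They were the hourglass layer at 608 and 620.5, the adaxial parenchyma at 814 and 399.5, the hilum at 559.5 and 414, the aleurone at 708 and 171 and the palisade at 205 and 113. The second probe set of KTI-3 gave nearly the same order, with a Pearson correlation of 0.984 over the 16 compartments, and was brightest in the same compartment, at 27751 and 26991.

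The first question the sampling addresses is how the genes differ between embryo and seed coat. Against the axis, KTI3, KTI-2 and KTI-3 were lower in the seed coat and KTI1 was below the background in most compartments of both. The log2 differences of seed coat minus axis over compartment means were -3.95 ± 0.99 for KTI3, -4.24 ± 1.03 for KTI-2 and -4.34 ± 0.99 for KTI-3, with limma adjusted p of 0.0101, 0.00875 and 0.00613. These are at least 12.5-fold, at least 17.3-fold and at least 20-fold lower signals. For KTI3 this is its single-gene probe set, while the probe set listed for TI-A, TI-B and KTI3, described last, was 8.11-fold lower. The 3 lower calls among 4 genes stand beside 8.37% of all probe sets tested that were called lower and 15.9% called in either direction. With the level of the hybridization controls as a covariate the 3 differences were -3.69, -2.91 and -4.56 and none was called (adjusted p = 0.134, 0.240 and 0.0708). Over all alternatives run, 2221 to 5249 probe sets were called in this comparison, against 4512 as reported. Whether the loss under the covariate is particular to the 3 genes was not tested.

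Against the cotyledon, 3 of 4 genes were again lower in the seed coat, beside 5.89% of all probe sets tested called lower and 11.2% called in either direction. The largest difference was that of KTI3 on its single-gene probe set, at -6.69 ± 1.03 (adjusted p = 4.92e-04), which is at least 83.8-fold lower. The probe set listed for TI-A, TI-B and KTI3, described last, was 6.81-fold lower. KTI-2 was lower by at least 16.7-fold, with a log2 difference of -4.19 ± 1.08 (adjusted p = 0.0175). KTI1 differed by -3.65 ± 0.99 (adjusted p = 0.0233), which is at least 3.91-fold lower, and this call was lost without the adaxial parenchyma of the cotyledon (adjusted p = 0.0566). KTI-3 was not called on its brighter probe set, at -3.13 ± 1.04 (adjusted p = 0.0566), and was called on the other, at -3.82 ± 1.14 (adjusted p = 0.0372). The storage markers given above were also lower in the seed coat, and their part in these differences was not tested.

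Between cotyledon and axis as whole regions none of the 4 genes was called, beside 1.50% of the probe sets tested. The log2 differences of cotyledon minus axis were 2.74 ± 0.99 (adjusted p = 0.165) for KTI3 and 3.50 ± 0.95 (adjusted p = 0.07) for KTI1. They were -0.05 ± 1.03 (adjusted p = 0.987) for KTI-2 and -1.21 ± 0.99 (adjusted p = 0.581) for KTI-3. KTI1 and KTI3 were called when the 32 arrays were used with the compartment as a random block (adjusted p = 0.00573 and 0.0344), beside 3.68% of the probe sets tested. That fit used 1 correlation between replicate arrays for all probe sets, so it can understate the spread of genes that vary widely between compartments. In the fit to compartment means KTI1 and KTI3 passed at an unadjusted p under 0.05, 2 of the 4 genes, beside 16.8% of the probe sets tested. The compartments of a region differed widely among themselves, and KTI3 ran from 122 to 42458 on the arrays of the axis.

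Whether 2 genes were divided differently between regions was tested for all 6 pairs in all 3 region comparisons, 18 exact two-sided permutation tests over compartments. After adjustment 3 of them passed, each at an adjusted p of 0.0260. KTI3 was more cotyledon-biased than KTI-3, with a log2 difference between their region differences of 3.95 (exact permutation p = 0.00433). KTI1 differed from KTI-2 by 4.10 (exact permutation p = 0.00216, the smallest that 462 permutations allow) and from KTI-3 by 4.20 (exact permutation p = 0.00433) in seed coat minus axis. KTI1 lay near or below the background in both of these regions. No pair passed in seed coat minus cotyledon. All 3 results were lost when some of the compartments were left out, which by itself raises the smallest p that the permutations allow. In cotyledon minus axis no pair passed when any of 10 of the 11 compartments was left out, the exception being the cotyledon abaxial epidermis, nor without axis vascular bundle replicate 1 or cotyledon adaxial epidermis replicate 1. In seed coat minus axis no pair passed without 5 of the 11 compartments, which were all those of the axis but the shoot meristem, and 1 pair passed without 4 others, which were all those of the seed coat but the parenchyma. Where 5 compartments meet 5, as without 1 of the axis, that smallest p is 0.00794, above the unadjusted p of all 3 results. The losses with a compartment left out therefore cannot show that a result rests on it. With the arrays of bright controls left out, which drops the axis epidermis and the plumule altogether, no pair passed in any region comparison.

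Within the axis, parenchyma was the brightest tissue for KTI3, KTI-2 and KTI-3. The epidermis was lower for 2 of 4 genes, beside 4.26% of the probe sets tested called lower and 7.61% called in either direction. KTI-3 differed by -1.95 ± 0.46 (adjusted p = 0.00667), a 3.87-fold lower signal in the epidermis, and KTI3 by -2.48 ± 0.68 (adjusted p = 0.0214), 5.58-fold lower. KTI-2 at -0.95 ± 0.48 (adjusted p = 0.26) and KTI1 at -0.65 ± 0.77 (adjusted p = 0.698) were not called, nor was the second probe set of KTI-3 at -1.62 ± 0.55 (adjusted p = 0.0731). The KTI3 call was lost when any 1 of the 4 arrays of the 2 groups was left out (adjusted p between 0.0741 and 0.139), and that of KTI-3 without axis parenchyma replicate 2 (adjusted p = 0.0514).

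The axis vascular bundle was lower than the parenchyma for 3 of 4 genes, beside 3.65% of all probe sets tested called lower and 7.22% in either direction. The differences were -3.45 ± 0.68 (adjusted p = 0.00124) for KTI3, -3.28 ± 0.48 (adjusted p = 4.15e-05) for KTI-2 and -2.98 ± 0.46 (adjusted p = 6.5e-05) for KTI-3, which are 10.9-fold, 9.74-fold and 7.91-fold lower signals. KTI3 was no longer called without axis vascular bundle replicate 1 (log2 difference -2.63, adjusted p = 0.0607). The mean of the root and shoot meristem was also lower for 3 of 4 genes, beside 4.29% called lower and 7.66% in either direction. There KTI3 differed by -4.65 ± 0.59 (adjusted p = 4.05e-06), KTI-2 by -3.75 ± 0.42 (adjusted p = 6.12e-07) and KTI-3 by -2.60 ± 0.40 (adjusted p = 4.69e-05). The folds were at least 22.7-fold, 13.5-fold and 6.07-fold. KTI1 was not called in either contrast, at -1.78 ± 0.77 (adjusted p = 0.184) and -1.42 ± 0.67 (adjusted p = 0.212), but passed in both when axis parenchyma replicate 1, its lower array, was left out (log2 differences -3.14 and -2.78, adjusted p = 0.0260 and 0.0308).

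Within the cotyledon all 4 genes differed between epidermis and parenchyma, 2 in each direction, beside 11.9% of the probe sets tested, with 5.94% of those tested called higher and 5.98% lower. In the epidermis KTI-2 was higher, by at least 28.5-fold, with a log2 difference of 4.87 ± 0.34 (adjusted p = 3.11e-11), and KTI-3 was 11.7-fold higher, with 3.55 ± 0.32 (adjusted p = 4.54e-09). KTI3 was 4.52-fold lower in the epidermis, with -2.18 ± 0.48 (adjusted p = 0.00182), and KTI1 was at least 9.82-fold lower, with -3.88 ± 0.54 (adjusted p = 6.74e-06). The second probe set of KTI-3 was higher by 3.02 ± 0.39 (adjusted p = 2.12e-06). Of the 2 vascular markers, SUT1 was at 30441 and 40790 in the abaxial epidermis, while BZIP16 was below the background there. Their sum was 616 to 736 in the adaxial epidermis and 159 to 240 in the 2 parenchyma groups, and its part in these differences was not tested.

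The vascular bundle of the cotyledon differed from the parenchyma in the same direction as the epidermis for KTI-2, KTI-3 and KTI1, beside 6.65% of the probe sets tested called higher, 4.03% lower and 10.7% in either direction. KTI-2 was at least 22.2-fold higher there than in the parenchyma, at 4.51 ± 0.42 (adjusted p = 9.8e-09), and KTI-3 was 20.9-fold higher, at 4.39 ± 0.40 (adjusted p = 5.74e-09). KTI1 was at least 26.6-fold lower, at -5.03 ± 0.67 (adjusted p = 3.51e-06). KTI3 was not called, at -0.96 ± 0.59 (adjusted p = 0.381). The 2 vascular markers summed to 5752 to 7797 in this bundle, with both above the background.

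The same contrasts had opposite signs in the 2 embryo regions for KTI-2 and KTI-3, although the axis epidermis of KTI-2 was not called. The difference itself was tested as an interaction term, the contrast in the cotyledon minus the contrast in the axis. For the epidermis it was 5.82 ± 0.59 (adjusted p = 3.03e-07) for KTI-2 and 5.50 ± 0.56 (adjusted p = 2.95e-07) for KTI-3, and 2 of 4 genes passed, beside 3.35% of the probe sets tested. For the vascular bundle it was 7.80 ± 0.64 (adjusted p = 1.11e-08) for KTI-2 and 7.37 ± 0.60 (adjusted p = 1.11e-08) for KTI-3, and again 2 of 4 genes passed, beside 3.04%. For KTI3 the terms were 0.30 ± 0.83 (adjusted p = 0.911) and 2.50 ± 0.90 (adjusted p = 0.165), and for KTI1 -3.23 ± 0.94 (adjusted p = 0.0574) and -3.25 ± 1.02 (adjusted p = 0.0897). KTI1 passed in both when axis parenchyma replicate 2 was left out (adjusted p = 0.00854 and 0.0133) or with a pseudocount of 64. For the epidermis it passed in 8 of 45 alternatives, among them the replicate number as a block (adjusted p = 0.0411) and the control level as a covariate (adjusted p = 0.0385). The axis side of both KTI1 terms is near the floor, since KTI1 exceeded the background on 1 of 12 axis arrays.

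**Figure D2:**
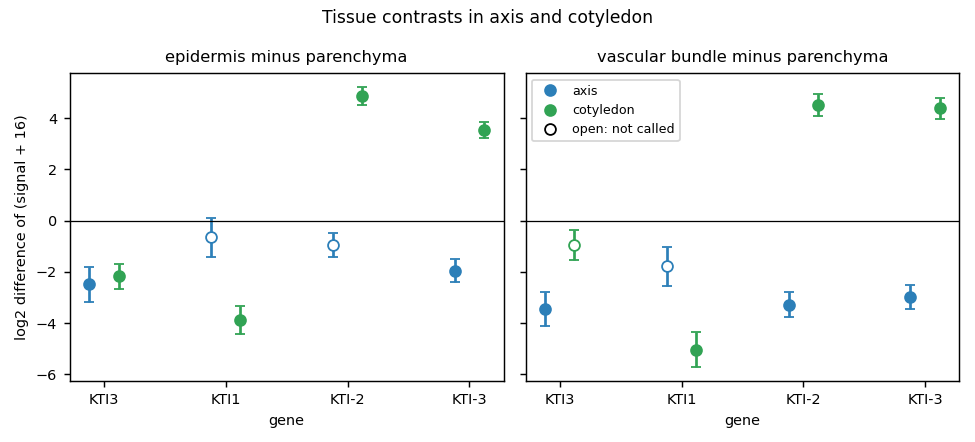
Log2 differences of epidermis (left) and vascular bundle (right) from parenchyma in the axis (blue) and the cotyledon (green), on log2 of the signal plus 16. Bars are standard errors of the limma fit and open circles were not called. KTI-2 and KTI-3 lie below 0 in the axis and above 0 in the cotyledon, whereas KTI3 lies below 0 in both. KTI1 also lies below 0 in both, but it exceeded the background on 1 of 12 axis arrays, and its axis contrasts were not called.

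The 3 parenchyma groups differed in which inhibitor genes were bright, as the direct comparisons show. Between the parenchyma of the cotyledon and that of the axis 3 of 4 genes were called, beside 7.45% of the probe sets tested. KTI-2 was at least 37.1-fold and KTI-3 45.7-fold lower in the cotyledon parenchyma, with log2 differences of -5.25 ± 0.42 (adjusted p = 1.11e-09) and -5.51 ± 0.40 (adjusted p = 1.68e-10). KTI1 was at least 14.7-fold higher there, with 4.84 ± 0.67 (adjusted p = 9.91e-06). KTI3 was bright in both and differed by 0.24 ± 0.59 (adjusted p = 0.876).

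The 2 sides of the cotyledon also differed. In the abaxial parenchyma 3 of 4 genes were higher than in the adaxial parenchyma, beside 0.605% of the probe sets tested called higher and 1.02% in either direction. KTI1 was 14.8-fold higher, with 3.89 ± 0.77 (adjusted p = 0.00579), KTI-2 at least 7.56-fold higher, with 2.99 ± 0.48 (adjusted p = 5.15e-04), and KTI-3 4.26-fold higher, with 2.09 ± 0.46 (adjusted p = 0.0145). KTI3 differed by -0.02 ± 0.68 and was not called. The second probe set of KTI-3 was not called, at 2.10 ± 0.55 (adjusted p = 0.0689). No gene was called without abaxial parenchyma replicate 1, and 1 gene without adaxial parenchyma replicate 2. KTI1 alone was not called without abaxial parenchyma replicate 2 (adjusted p = 0.0764).

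The same side difference was then examined in the epidermis, a comparison added after the values were seen. KTI1 was at least 3.92-fold higher in the abaxial than in the adaxial epidermis, with 3.14 ± 0.77 (adjusted p = 0.0179), and was the 1 gene of 4 called, beside 3.52% of the probe sets tested. The other 3 genes differed by -0.87 ± 0.68, -0.52 ± 0.48 and -0.48 ± 0.46 for KTI3, KTI-2 and KTI-3. The KTI1 call was lost without either array of the abaxial epidermis or without adaxial epidermis replicate 2 (adjusted p between 0.107 and 0.144).

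In the seed coat the single-gene probe sets of the 4 genes were low apart from those of KTI-3 in the parenchyma, whereas the probe set listed for TI-A, TI-B and KTI3, described last, was above the background on all 10 arrays. In this layer KTI-3 reached 7489.8 and 7331, and no array of another layer exceeded 708. Its second probe set gave 4986 and 5192 there and at most 428 in the other layers. In a comparison added after the values were seen, KTI-3 was at least 19.5-fold higher in the parenchyma than in the mean of the other 4 layers, with 4.31 ± 0.36 (adjusted p = 1.52e-09), and the second probe set was at least 22-fold higher, with 5.39 ± 0.44 (adjusted p = 1e-09). KTI3 went the other way at -1.88 ± 0.54 (adjusted p = 0.015), which rests on 1 array, since without seed coat parenchyma replicate 2 it was -0.65 (adjusted p = 0.711). These 2 calls among 4 genes stand beside 13.8% of the probe sets tested.

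The layer with the bright KTI-3 signal had the lowest storage marker sums of the seed coat, at 735 and 486 over 8 markers, of which 3 and 1 exceeded the background. The 2 vascular markers BZIP16 and SUT1 summed there to 13743 to 15272, against 114 to 980 in the other 4 layers, and nearly all of it was BZIP16. The same sum was 6136 to 8737 in the axis vascular bundle, with both markers above the background. In the axis epidermis it was 21648 to 22136, but BZIP16 was below the background there and SUT1 made up nearly all of it. The hourglass marker Ep was at 22405 to 26007 in the seed coat parenchyma, against 38706 to 40376 in the hourglass layer and at most 2649 in the other 3 layers. The part of these tissues in the KTI-3 signal was not tested. In the hourglass layer the storage markers summed to 2375 and 12965, while KTI-3 stayed at 608 and 620.5.

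**Figure D3:**
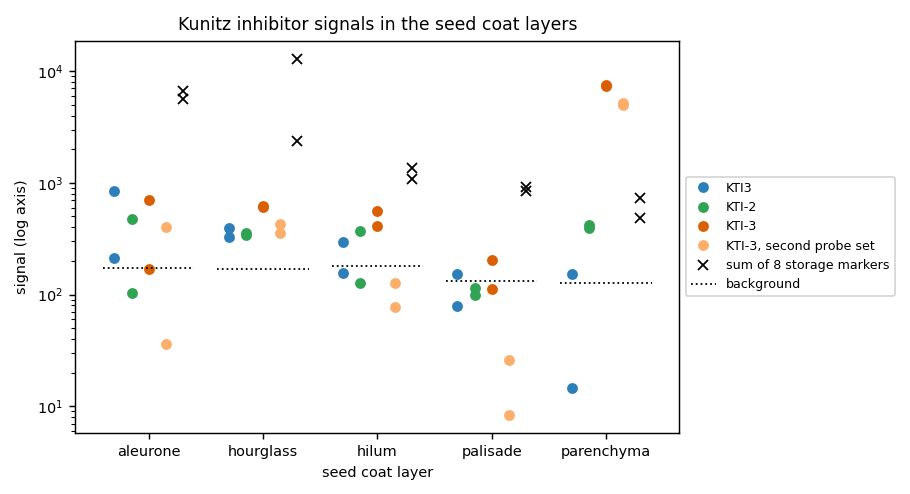
Signals of KTI3, KTI-2 and both probe sets of KTI-3 on the 2 arrays of each seed coat layer (log axis), with the summed signal of the 8 storage markers (crosses) and the mean background (dotted). KTI-3 lies between 4986 and 7489.8 in the parenchyma on both probe sets, where the storage markers sum to 486 and 735.

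For the aleurone against the mean of the other layers, KTI-3 was called lower at -1.11 ± 0.36 (adjusted p = 0.0229), the 1 call among 4 genes, beside 21.8% of the probe sets tested. Without aleurone replicate 2, whose signals were low for KTI3, KTI-2 and KTI-3, the difference was -0.13 (adjusted p = 0.861), and without aleurone replicate 1, which had bright controls, it was -2.08 (adjusted p = 4.06e-04). KTI3 was at 1.41 ± 0.54 (adjusted p = 0.0528) and was called in 9 of 46 alternatives. Its difference was 2.36 (adjusted p = 0.0154) without aleurone replicate 2 and 0.46 (adjusted p = 0.719) without replicate 1. The bright parenchyma arrays are part of the mean of the other layers for KTI-3.

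The whole seed was set against the mean of the 16 compartments, and all 4 genes were higher there, beside 19.3% of the probe sets tested called in either direction. The log2 differences were 5.17 ± 0.56 (adjusted p = 1.96e-07) for KTI1 and 3.48 ± 0.50 (adjusted p = 8.44e-06) for KTI3. They were 2.78 ± 0.35 (adjusted p = 1.74e-06) for KTI-2 and 1.85 ± 0.33 (adjusted p = 1.49e-04) for KTI-3. These differences are from a mean of log2 values, which dim compartments pull down, and the mean signals lay closer together. Those of the whole seed and of the 16 compartments were 4548 and 1097 for KTI1, 26862 and 11798 for KTI3, 13180 and 6576 for KTI-2, and 15409 and 11132 for KTI-3. The mean gives every compartment the same weight whatever its share of the seed, and the whole seed RNA was made with another reagent. Its hybridization controls were also dimmer than those of any compartment array. These 3 features of the comparison cannot be told apart from the group difference.

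The Pearson correlations between the genes were taken over compartment means of log2 values that share arrays and scaling. Over 16 compartments KTI-2 and KTI-3 correlated at 0.907, and over the 11 compartments of the embryo at 0.893. The names of both probe sets end in s_at. The second probe set of KTI-3, whose name ends in at, correlated with KTI-2 at 0.881 and 0.903. Whether the probe sets of KTI-2 and KTI-3 bind each other's transcripts was not tested. KTI3 and KTI1 correlated at 0.623 and 0.622. KTI3 correlated with KTI-2 at 0.617 over 16 compartments and at 0.091 over the 11 of the embryo, and with KTI-3 at 0.460 and -0.149. KTI1 and KTI-3 correlated at -0.024 over 16 compartments and at -0.543 over the embryo, and KTI1 and KTI-2 at 0.110 and -0.262.

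Among 874 named genes, the ones most like each inhibitor gene over the 16 compartments were taken by Pearson correlation. For KTI3 the highest were D-II, a Bowman-Birk type protease inhibitor, at 0.934, LEC1-A, named after a seed maturation regulator of Arabidopsis, at 0.924, and ACCC-3 at 0.915. LOX2, a seed lipoxygenase, and ICE2 were both at 0.890 after rounding. For KTI1 they were ALDH5F2 at 0.911, CYP71D10 at 0.812, MT2 at 0.809, the Bowman-Birk inhibitor gene BBI at 0.790 and PURD at 0.772. For KTI-2 they were SGT3, a glycosyltransferase of soyasaponin synthesis, at 0.930, DRR1 at 0.916, A1 at 0.913, CYP93E1, a cytochrome P450 of soyasaponin synthesis, at 0.907 and CYP72A67 at 0.899. For KTI-3 they were CYP72A67 at 0.975, CYP93E1 at 0.943, SGT3 at 0.931, the related glycosyltransferase SGT2 at 0.924 and GT4 at 0.919. SGT3, CYP93E1 and CYP72A67 stood among the first 5 of both KTI-2 and KTI-3.

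For comparison, 9 genes were taken by symbols like those of other protease inhibitors. They include BBI, BBI-1, BBI-2 and D-II of the Bowman-Birk type and CYSTATIN, a cysteine protease inhibitor. CYSP1, CYSP2, R1 and L1 entered by the letters of their symbols alone and are not shown to be inhibitors. All 9 are kept in the counts and the median. In seed coat minus cotyledon 1 of the 9 was higher and 2 lower, with a median log2 difference of -0.33, against -3.92 over the 4 Kunitz genes and -0.01 over all probe sets tested, of which 11.2% were called. In cotyledon epidermis minus parenchyma 2 were higher and 1 lower, beside 5.94% and 5.98% of the probe sets tested. D-II was lower in the seed coat than in the cotyledon, with -6.13 ± 0.91 (adjusted p = 3.69e-04), and lower in the axis vascular bundle than in the axis parenchyma, with -5.32 ± 0.89 (adjusted p = 1.91e-04). BBI was lower in the cotyledon epidermis than in the parenchyma, at -4.52 ± 0.90 (adjusted p = 6.41e-04), and higher in the abaxial than in the adaxial epidermis, at 5.05 ± 1.28 (adjusted p = 0.022), the direction of KTI1 in both. BBI-2 had the direction of KTI-2 and KTI-3, with 2.45 ± 0.57 (adjusted p = 0.0028) for the epidermis of the cotyledon, -5.46 ± 0.69 (adjusted p = 2.96e-06) for the cotyledon against the axis parenchyma and an interaction term of 6.16 ± 1.06 (adjusted p = 6.37e-04) for the vascular bundle.

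The inhibitors accumulate with the storage proteins, and 14 genes were taken by symbols like those of that class. Of these, 12 passed the filter on low signals. They include SBP2, SBP65, SBPRP and P34, which are not shown to be storage protein genes and are kept in the counts. In seed coat minus cotyledon 8 of 12 were lower and none higher, with a median log2 difference of -3.99, beside 5.89% of the probe sets tested called lower. In cotyledon epidermis minus parenchyma 1 was higher and 6 lower, beside 5.94% and 5.98%. In cotyledon parenchyma minus axis parenchyma 5 were higher and none lower, beside 7.45% called in either direction.

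A further probe set is listed for TI-A, TI-B and KTI3 together, and Ti-a and Ti-b are synonyms of KTI3 in the RefSeq table. The shared probe set did not enter the counts and calls above because it is listed under several symbols. Its mean signal over the 34 arrays was 42831, against 12684 for the KTI3 probe set. It exceeded the background on all 34 arrays and correlated with the KTI3 probe set at 0.800 over the 16 compartments, but it showed less contrast. Its signals were 102442 and 102327 in the axis epidermis, 78075 and 84362 in the axis parenchyma and 55688 and 44025 in the adaxial parenchyma of the cotyledon. In the plumule it gave 35621 and 36839 and in the shoot meristem 27463 and 20663, 2 groups where the KTI3 probe set did not exceed 724. In the seed coat it was at 27651 and 40325 in the hourglass layer, where its arrays lay within the range of the embryo, and at 21930.2 and 2934 in the aleurone. The KTI3 probe set was at 391 and 327 and 841 and 214 in these 2 layers. In the hilum the shared probe set gave 10459.5 and 2611, in the seed coat parenchyma 8678 and 1135 and in the palisade 3530 and 4607.

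On this shared probe set the seed coat was lower than the axis, at -3.02 ± 0.50 (adjusted p = 6.09e-04), and lower than the cotyledon, at -2.77 ± 0.52 (adjusted p = 0.00227). The 4 contrasts within the embryo that were called for KTI3 were not called on it (the axis meristems at an adjusted p of 0.354), with 0.34 ± 0.68 (adjusted p = 0.838) for the axis epidermis, -0.14 ± 0.68 (adjusted p = 0.949) for the axis vascular bundle and 0.17 ± 0.48 (adjusted p = 0.879) for the cotyledon epidermis. Nor was the whole seed, at -0.03 ± 0.50 (adjusted p = 0.974). In 13 of 17 groups its array with the brighter hybridization controls had the higher signal, against 10 for KTI3. The 2 probe sets therefore disagree about KTI3 within the embryo and in the layers of the seed coat, so the low seed coat signals given for KTI3 are those of its single-gene probe set. Which transcripts each one binds was not tested. The probe set listed for P20-1 and KTI-1 was below the background on all 34 arrays, between 3.1 and 129.5.

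**Figure D4:**
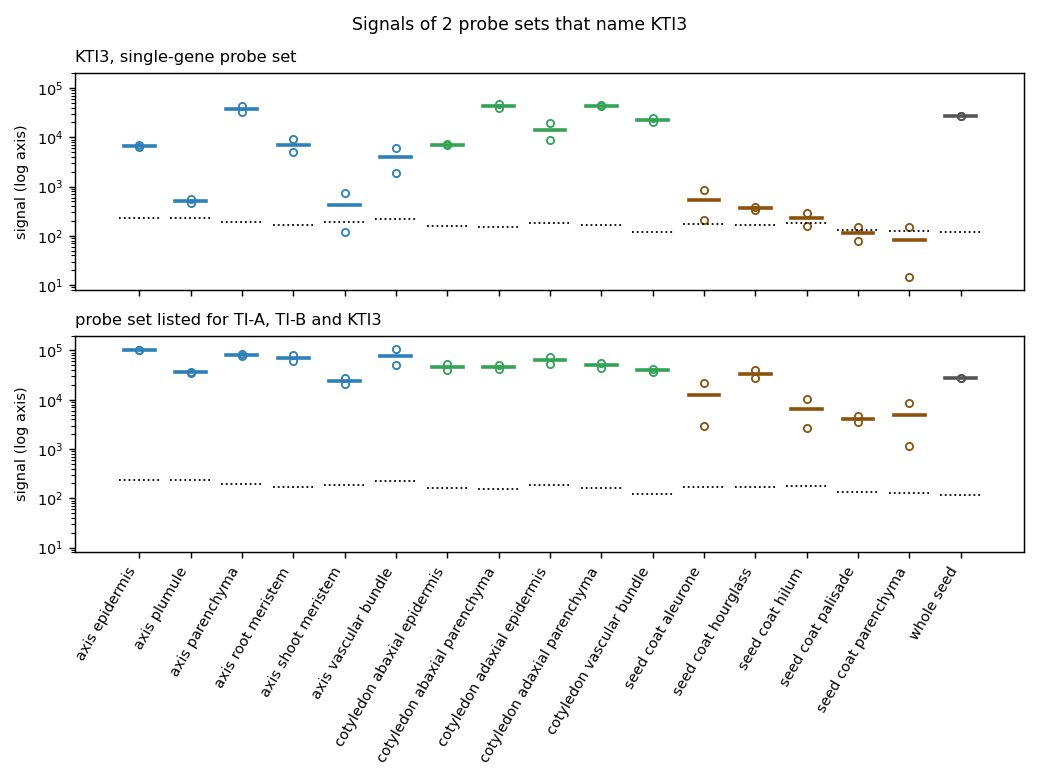
Signals (log axis) of the single-gene probe set of KTI3 and of the probe set listed for TI-A, TI-B and KTI3 in the 17 groups. Circles are arrays, bars means and dotted lines the mean background. The shared probe set lies above the background throughout, from 1135 to 106714, while the KTI3 probe set falls to the background in parts of the seed coat.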

How the data were processed

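Signals of 34 Affymetrix Soybean Genome Arrays, 2 for each of 17 groups, were analysed. The authors deposited 1 intensity per probe set and array, linear in scale and made with GCOS 1.3 per the submitters' processing notes. Not given in the sources used here is the algorithm behind it. On each array the mean without the lowest and highest 2% of values was 500.1. In all 61170 probe sets were listed and no column without a sample. For arrays, their number limits the precision, and no detection calls or saturation flags were used here.

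Test values were log2 of the signal plus a pseudocount of 16, which shrinks the log2 differences of dim genes. Soybean probe sets were kept for testing where they exceeded, on at least 2 arrays, the 95th percentile of the 23350 probe sets for other organisms, which 28441 did, including the 5 described. The region comparisons used a limma fit to the means of the 16 compartments, and the rest used a single limma fit to all 17 groups, both with eBayes and an intensity trend. A call needed a Benjamini-Hochberg adjusted p under 0.05 over all 28441 and a log2 difference of at least 1 in either direction, and F tests needed the p alone. A fold is the ratio of means of log2 values, written "at least" where any array of the dimmer side lay below the background and was raised to it. None is given where both sides lay below it or for the whole seed. Pairs of genes were compared by exact two-sided permutation tests over compartments, adjusted over 18 tests. The fits were tested on simulated data.

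The genes named were all single-gene probe sets of the 4 symbols, each gene read by its brighter one, and the 5 named genes most correlated with each. The members, lists and markers were chosen with earlier results of these data known. Replicate numbers were not used to pair the samples. Over 136 pairs of groups the correlation of their deviations had a median of 0.02, exceeded 0.1 in 4 and reached 0.153. Taken over all probe sets tested, it cannot show whether groups share seeds or a day. R 4.3.3, limma 3.58.1, data.table version 1.17.8, Python 3.11.15, pandas 2.3.3 and matplotlib 3.10.9 were used. Alternatives were other pseudocounts, scalings, filters, variance models, array weights, the control level as a covariate, a replicate block and leaving out arrays or compartments. Motifs in promoters were not searched, and no sequences are shown.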

Additional observations from a re-analysis of the deposited data

Results flagged for a closer look

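KTI-3 in the axis parenchyma stood apart from the other axis compartments. The gap to the next compartment was 0.637 of the range of the 6 mean log2 signals, against a critical value of 0.625. It was the only one flagged among 12 such sets of compartments, and chance flags about 5% of sets.

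The contrast of epidermis with parenchyma differed between cotyledon and axis for KTI-2, with a log2 interaction term of 5.82, and for KTI-3, with 5.50. The contrast of vascular bundle with parenchyma differed likewise, with a term of 7.80 for KTI-2 and 7.37 for KTI-3. In the cotyledon both arrays of the vascular bundle lay above all 4 arrays of the parenchyma for both genes, and in the axis both lay below both arrays of the parenchyma.

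The probe set listed for TI-A, TI-B and KTI3, which the comparisons of single genes did not use, exceeded the background on 34 of 34 arrays, including the 10 of the seed coat.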

How the results depend on the processing

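Of 64 log2 differences with a direction, 39 were called, 26 of them under every alternative run, and none of the 39 changed sign. Replicate numbers were not used to pair the samples. With the replicate number as a block the aleurone count was 2 in place of 1, since KTI3 was then called (adjusted p = 0.0298). Under this block the KTI1 interaction term of the epidermis was also called (adjusted p = 0.0411), and no other call for the 4 genes changed. For axis epidermis minus parenchyma 2 genes were called, but 1 with a pseudocount of 1, without the variance trend or with the control level as a covariate, 0 with array weights, and 0 to 2 when 1 array was left out. For the aleurone 1 was called, 0 with array weights or only the arrays compared, and 1 to 2 when 1 array was left out. For seed coat minus axis 3 were called and 0 with the control level as a covariate. For abaxial minus adaxial parenchyma 3 were called, 1 with only the arrays compared and 0 to 3 when 1 array was left out. For cotyledon minus axis 0 were called, 2 with arrays blocked randomly by compartment, also with a replicate block added after seeing the data, and 0 to 1 when 1 array or compartment was left out. Within the seed coat 3 genes differed, and 1 to 3 when 1 array was left out. Gene pairs that differed in cotyledon minus axis were 1, 2 with a pseudocount of 1, 0 without the arrays of bright controls and 0 to 2 when 1 array or compartment was left out, and in seed coat minus axis they were 2, 0 without those arrays and 0 to 3 when 1 array or compartment was left out. The cause of these changes was not tested.

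All log2 differences that changed sign were uncalled. KTI1 in seed coat parenchyma minus other layers was 0.043, and -0.034 with a pseudocount of 64, -0.014 with scaling to the 75th percentile, -0.24 with the control level as a covariate, -0.030 without the arrays of bright controls and from -0.21 to 0.30 when 1 array was left out. KTI1 in seed coat minus axis was -0.14, 0.031 with quantile normalization and from -0.37 to 0.10 when 1 array or compartment was left out. The KTI3 interaction term of the epidermis was 0.30 and -0.25 with quantile normalization. KTI-2 in cotyledon minus axis was -0.05, 1.59 with the control level as a covariate, 0.26 without the arrays of bright controls and from -0.62 to 1.03 when 1 array or compartment was left out. With 1 array left out, KTI1 in axis epidermis minus parenchyma ranged from -2.004 to 0.71, KTI3 in abaxial minus adaxial parenchyma from -0.13 to 0.10 and KTI-2 in the aleurone from -1.13 to 0.94. Over all alternatives the number of probe sets called ranged from 23 to 1047 (426 as reported) for cotyledon minus axis, 2221 to 5249 (4512) for seed coat minus axis, 733 to 2427 (2164), 790 to 2531 (2053) and 1253 to 2579 (2179) for axis epidermis, vascular bundle and meristems minus parenchyma, 144 to 627 (290) for the 2 sides of the parenchyma, 544 to 1319 (1002) for those of the epidermis, 1925 to 4064 (3035) for the cotyledon vascular bundle, 1247 to 2532 (2118) for cotyledon minus axis parenchyma, 2210 to 5090 (3926) for the seed coat parenchyma, 1761 to 6551 (5498) for the whole seed, and 532 to 1341 (952) and 511 to 1262 (864) for the 2 interaction terms. KTI1 was below the background on 24 of 34 arrays, which limits what can be said of it outside the cotyledon.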

Other observations

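The storage markers and the single-gene probe set of KTI3 did not mark the same axis compartments. In the shoot meristem the 8 storage markers summed to 105264 and 105870 and in the plumule to 122046 and 110575, close to the 113520 and 98545 of the axis epidermis. KTI3 was at 724 and 122 in the shoot meristem and 458 and 572 in the plumule, against 6938 and 6318 in the axis epidermis. In the root meristem the order was turned, with storage marker sums of 14597 and 13671 and KTI3 at 9114 and 5112. KTI-3 was at 16248 and 13146 in the plumule and 14402 and 14244 in the axis epidermis, without the gap seen for KTI3. The probe set listed for TI-A, TI-B and KTI3 was at 35621 and 36839 in the plumule and 102442 and 102327 in the axis epidermis. These groups were picked after their values were seen.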
